A study of Mus musculus with 9 samples.

Results

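The genes described are the protein-coding genes that build or steer the spliceosome and whose mouse symbol starts with Srsf, Sf3a, Sf3b, Snrp, Hnrnp, U2af or Prpf. The rule found 69 of the 21887 protein-coding genes in the RefSeq table for mm10: 11 Srsf, 3 Sf3a, 6 Sf3b, 12 Snrp, 3 U2af, 13 Prpf and 21 Hnrnp genes. One of them, Hnrnpa1l2-ps2, is listed as protein-coding but carries a pseudogene's name.

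The data were CUT&Tag peak lists from bone marrow of C57BL/6 mice at 12 weeks of age. CUT&Tag tethers a transposase to an antibody, so that DNA is cut and tagged beside the bound protein or histone mark. All mice carried floxed Dek alleles. The control mice (Dekfl/fl, written fl) had no Cre, and the knockout mice (Dekfl/fl,Tie2-Cre, written cKO) carried Tie2-Cre, which is active in endothelial as well as blood cells. H3K4me3 (a promoter mark) and H3K27ac (an acetylation mark of active promoters and enhancers) were profiled in LSK cells, the sorted stem and progenitor gate, with about 50000 cells. H3K9ac, another acetylation mark, was profiled in sorted haematopoietic stem cells (HSC) with about 20000 cells. Each of these 3 marks had 1 fl library and 1 cKO library, so no difference between genotypes has a replicate check and none was tested. DEK, the chromatin factor deleted in the knockout, had 3 HSC libraries from fl mice, and no DEK library from cKO cells was analysed here. Nothing in the labels says whether a library came from 1 mouse or from pooled mice.

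Splicing removes introns from pre-mRNA. The spliceosome is assembled from small nuclear RNA particles: Snrp genes encode their Sm core and other particle proteins, U2af proteins bind the splice site at the end of the intron, and the Sf3a and Sf3b complexes hold the U2 particle at the branch point. Prpf proteins belong to several assemblies, among them the U4/U6 and U5 particles and the catalytic spliceosome. SR proteins (Srsf) mostly favour the use of nearby exons, whereas hnRNP proteins coat pre-mRNA and often oppose it, and many genes of both kinds control their own transcripts through alternative exons. SRSF2, SF3B1 and U2AF1 are recurrently mutated in human myeloid disease.

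The lists held 10514 (fl) and 10159 (cKO) H3K4me3 peaks, 10494 and 16331 H3K27ac peaks, 2172 and 3431 H3K9ac peaks, and 2054, 2111 and 6147 DEK peaks. They carry no read counts, so the depth behind them is unknown. As a check of the cell labels, an H3K4me3 peak lay at an end of 11 of 14 stem and progenitor genes in fl and 9 of 14 in cKO. Of the general blood genes Ptprc, Spi1 and Cd48, H3K4me3 lay at 3 of 3 in fl and at 1 of 3 (Ptprc) in cKO, and H3K27ac and H3K9ac at 0 of 3 in both genotypes, so these genes do not all bear out the labels. At the 3 markers each of B cells, T cells, granulocytes and macrophages, endothelium, stroma and non-blood tissue, H3K4me3 was found at 0 in both genotypes, and of the 3 erythroid markers Klf1 carried it. Among the same 14 stem and progenitor genes H3K27ac lay at 1 (Flt3) in fl and at 9 in cKO, and H3K9ac at 0 in either genotype, so the H3K9ac lists held none of the markers of their labelled cells. In cKO, H3K27ac also lay at Cd79a, Kdr and Cxcl12 and H3K9ac at Itgam and Kdr, each 1 of 3 markers of another cell type; their part in the results was not tested.

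Promoter sequences of some of these genes are shown first. The RefSeq promoter table (GRCm38.p6, the mm10 assembly) listed a start for 60 of the 69 genes, in 81 windows that run from 250 bases before the start to 50 after it. Each stretch printed here runs from 180 bases before a start to 20 bases from it on, 5′ to 3′ on the strand of the gene. The first 3 stretches have every CG in capitals. They belong to Hnrnpa2b1, the gene with the widest H3K4me3 peak (chr6:51469875-51470074, minus strand), and to the genes Srsf12 (chr4:33209092-33209291, plus strand) and Snrpn (chr7:60005180-60005379, minus strand), at which H3K4me3 was not called.
Hnrnpa2b1: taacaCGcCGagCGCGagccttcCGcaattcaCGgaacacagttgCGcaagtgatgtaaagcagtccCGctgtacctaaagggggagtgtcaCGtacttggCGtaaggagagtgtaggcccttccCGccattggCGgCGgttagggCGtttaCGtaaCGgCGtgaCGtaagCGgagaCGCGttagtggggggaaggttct
Srsf12: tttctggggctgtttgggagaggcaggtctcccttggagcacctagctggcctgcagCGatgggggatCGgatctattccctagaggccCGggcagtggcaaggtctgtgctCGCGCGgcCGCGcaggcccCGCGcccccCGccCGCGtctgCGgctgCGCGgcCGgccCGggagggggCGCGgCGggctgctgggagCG
Snrpn: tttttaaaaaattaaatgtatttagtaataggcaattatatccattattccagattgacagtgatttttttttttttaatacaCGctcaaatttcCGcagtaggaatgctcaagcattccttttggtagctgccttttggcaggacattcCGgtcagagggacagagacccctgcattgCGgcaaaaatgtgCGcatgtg
Of the 2 starts listed for Hnrnpa2b1 and the 4 for Snrpn, 1 each is printed. The full windows of the Snrpn starts held 7, 4, 3 and 2 CGs, and the printed start is the one with 7. The Hnrnpa2b1 stretch held 21 CGs and the Srsf12 stretch 22, against 5 in Snrpn. A CG-rich start was therefore present at a member with the broadest H3K4me3 of the group and at a member with none. Over all 81 windows the median was 25 CGs, against 13 in the 21263 windows of all genes and 22 in those of genes with an H3K4me3 peak.

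The next 3 stretches have in capitals the letters CCGGAAG or CTTCCGG, the core of the site read by ETS transcription factors on either strand. They are the promoters of the whole Sf3a complex: Sf3a1 (chr11:4160174-4160373, plus strand), Sf3a2 (chr10:80798555-80798754, plus strand) and Sf3a3 (chr4:124714681-124714880, plus strand).
Sf3a1: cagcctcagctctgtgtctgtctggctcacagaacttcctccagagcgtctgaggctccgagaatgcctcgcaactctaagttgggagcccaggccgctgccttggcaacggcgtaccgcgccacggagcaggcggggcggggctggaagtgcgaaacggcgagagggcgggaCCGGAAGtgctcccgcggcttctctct
Sf3a2: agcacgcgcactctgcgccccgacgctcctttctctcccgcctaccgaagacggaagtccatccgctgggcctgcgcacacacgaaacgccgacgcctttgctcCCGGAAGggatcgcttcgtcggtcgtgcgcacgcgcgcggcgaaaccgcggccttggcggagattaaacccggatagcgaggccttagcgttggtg
Sf3a3: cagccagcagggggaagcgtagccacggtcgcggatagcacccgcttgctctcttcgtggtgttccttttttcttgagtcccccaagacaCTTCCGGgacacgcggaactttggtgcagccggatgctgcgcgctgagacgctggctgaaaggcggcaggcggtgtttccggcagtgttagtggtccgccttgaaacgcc
Each Sf3a stretch held 1 match. In the full windows the letters stood in 25 of 81 (30.9%), against 11.6% of the windows of all genes and 19.8% of those of genes with H3K4me3 at an end. The 25 windows belonged to 20 of the 60 genes. Windows of 1 gene can overlap nearly in full, as at Sf3b2 and Srsf4, and each was counted. By subfamily the letters stood in 3 of 3 Sf3a windows, 4 of 5 Sf3b, 6 of 14 Srsf, 4 of 14 Snrp, 4 of 14 Prpf, 4 of 28 Hnrnp and 0 of 3 U2af windows. A match describes the letters of the window and no binding was measured. GGGCGG or CCGCCC, read by SP and KLF factors, stood in 63.0% of the members' windows against 65.7% of windows of genes with H3K4me3, and CCAAT or ATTGG, read by NF-Y, in 48.1% against 38.3%. TGACG or CGTCA, part of the site of CREB and ATF factors, stood in 46.9% against 33.1%, and TATAAA or TTTATA in 9.88% against 6.37%. In the windows of all genes these shares were, in the same order, 46.2%, 38.2%, 23.6% and 12.6%. The TATAAA share of members was thus below that of all genes. In the 64 windows of members with H3K4me3 at an end, the shares were 62.5%, 48.4%, 50.0% and 9.375%. Each motif was counted on its own, so matches of different motifs may overlap.

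The first comparison asked which splicing factor genes carried the promoter mark, and where it was broad. An H3K4me3 peak lay within 1 kb of a gene end at 62 of 69 genes in fl (89.9%, 95% exact binomial interval 80.2 to 95.8) and at 61 in cKO (88.4%). Over all protein-coding genes the shares were 43.8% in fl and 42.7% in cKO. Most of the group thus carried the mark in both genotypes. It was found in both genotypes at 61 genes (41.1% of all genes), in fl only at 1 (2.75% of all genes) and in cKO only at 0 (1.59% of all genes), which leaves 7 with none in either (54.6% of all genes). The gene with the mark in fl only was Sf3a1, which encodes a U2 particle subunit. Its fl peak (chr11:4160599-4160959) was the narrowest of the group (361 bp, −log10 q 10.4, rank 8588 of 10514, where rank 1 has the highest −log10 q), and no cKO H3K4me3 peak lay within the gene or 1 kb of it. H3K27ac, by contrast, lay at the start of Sf3a1 in both genotypes (411 bp, rank 4578 of 10494 in fl, and 592 bp, rank 2076 of 16331 in cKO).

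**Figure D1:**
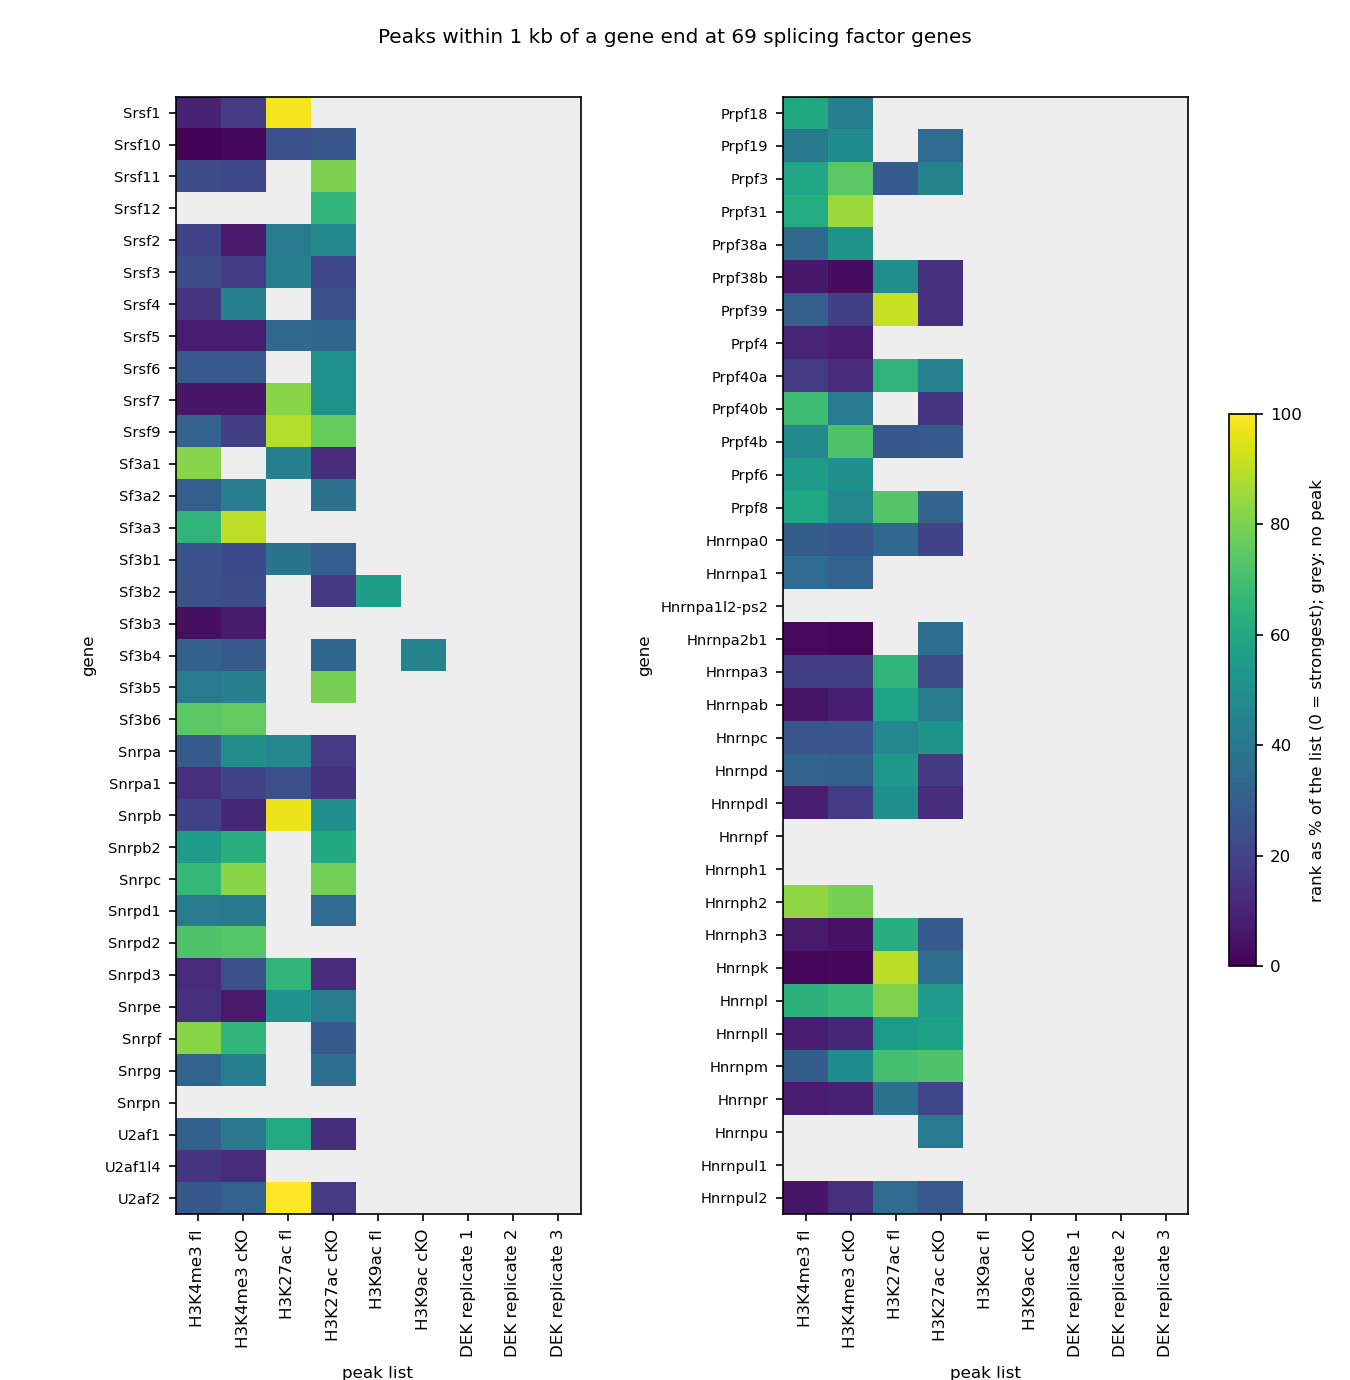
Each row is 1 of the 69 genes and each column 1 of the 9 peak lists; the colour gives the rank of the strongest gene-end peak as a percentage of its list (0 is the strongest), and grey means no peak. H3K4me3 fills nearly every row (62 and 61 genes), H3K27ac 35 rows in fl and 51 in cKO, H3K9ac 1 row in each genotype and DEK 0 rows.

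Of the 7 genes with no H3K4me3 peak at an annotated end in fl, 4 carried the mark elsewhere. Hnrnpu, Hnrnph1, Hnrnpf and Hnrnpul1, all hnRNP genes, carried it inside the annotated gene over a listed start in both genotypes. Hnrnpf, which encodes a binder of G-rich sequences, had one of the strongest peaks of the library there (chr6:117906702-117908210, 1509 bp, rank 14 of 10514 in fl and 22 of 10159 in cKO). The peak of Hnrnpu, a scaffold protein of nuclear RNA, was 1758 bp wide in fl with rank 110, and 1774 bp in cKO with rank 367. With such internal peaks included, 66 genes had H3K4me3 in fl and 65 in cKO. No share of all genes with internal peaks included was taken for this mark. The genes left without it in both lists were Srsf12, Snrpn and Hnrnpa1l2-ps2.

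H3K4me3 was broader at the hnRNP and SR genes than at the genes of the particles. In fl the median width at the members was 1168.5 bp (n = 62 genes), against 843 bp over all 9594 genes with a peak, and in cKO it was 1141 bp against 805 bp. By subfamily the fl medians were 1501 bp for Hnrnp (n = 16), 1484.5 bp for Srsf (n = 10) and 1174.5 bp for Sf3b (n = 6). They were lower in the remaining subfamilies: 961 bp for U2af (n = 3), 922 bp for Prpf (n = 13), 879 bp for Snrp (n = 11) and 503 bp for Sf3a (n = 3). Peaks of at least 1500 bp stood at 8 of 16 Hnrnp and 5 of 10 Srsf genes, but at 1 of 13 Prpf and 0 of 11 Snrp genes. In the whole group they stood at 16 of 62 (25.8%), against 7.52% of all genes with a peak. The subfamilies kept this order in cKO for Hnrnp (1453 bp), Srsf (1382 bp), Prpf (828 bp) and Snrp (744 bp). Sf3a did not keep its place, with 1123.5 bp in cKO (n = 2) above the 1038 bp of Sf3b. Without Sf3a1, which had no cKO peak, its fl median was 1080.5 bp. The ranges overlapped, from 894 to 2672 bp for Hnrnp and from 539 to 1370 bp for Snrp in fl.

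**Figure D2:**
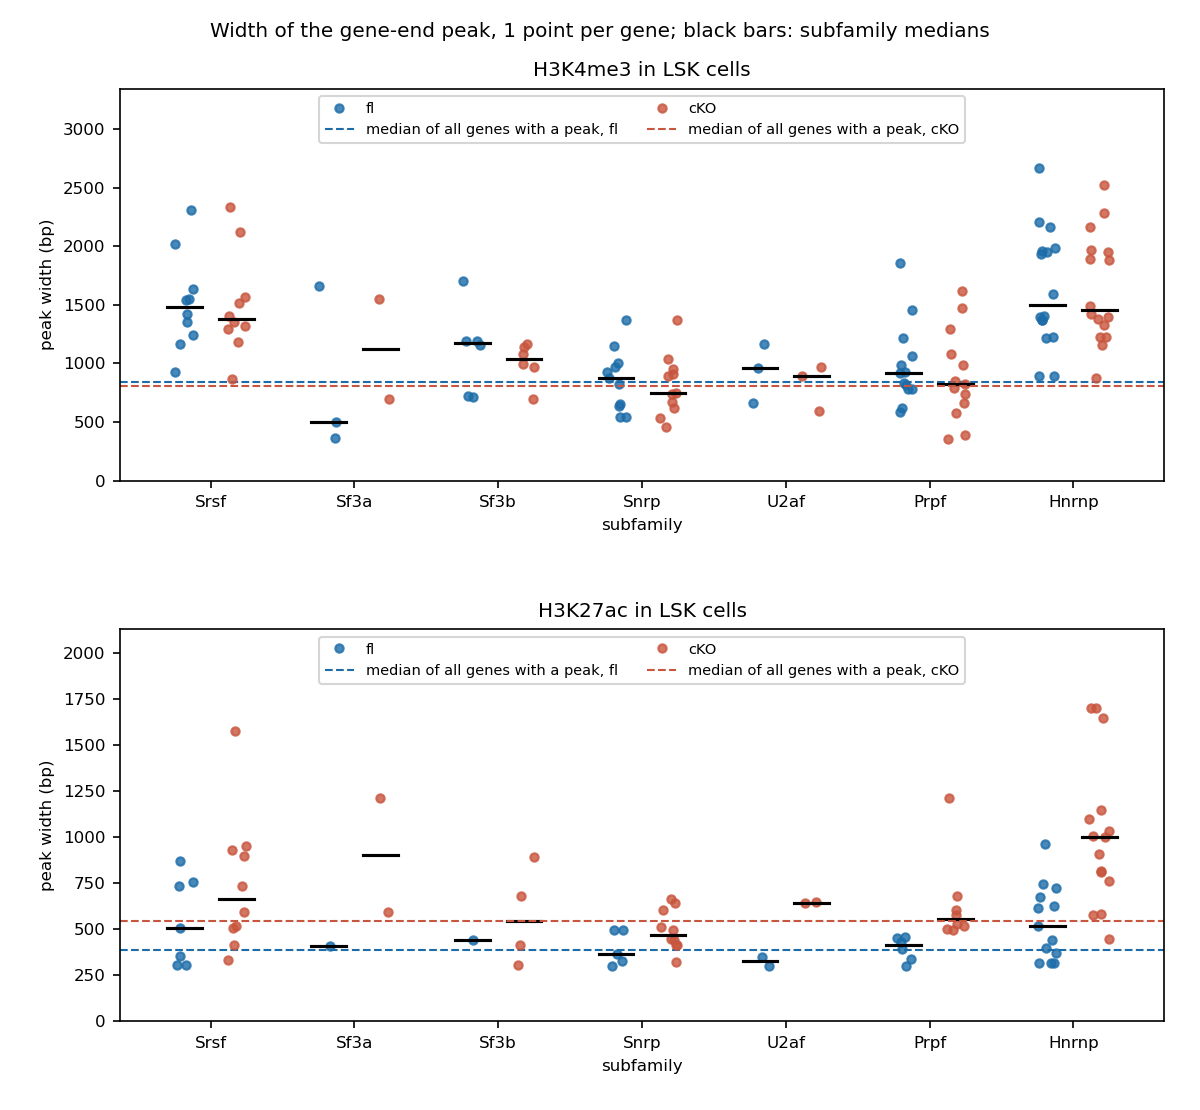
Width in bp of the strongest gene-end peak of each gene in LSK cells, by subfamily and genotype (fl blue, cKO red), with black bars at subfamily medians and dashed lines at the median of all genes with a peak in that list. Hnrnp and Srsf genes sit above the H3K4me3 line of all genes (843 bp in fl), Snrp and Prpf genes around it, and H3K27ac peaks of Hnrnp genes in cKO reach a median of 1003 bp.

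5 genes had H3K4me3 peaks of 2000 bp or more in fl (8.06%, against 1.47% of all genes with a peak). Hnrnpa2b1, a regulator of splicing and RNA transport, had the widest peak at 2672 bp in fl (chr6:51468614-51471285) and 2525 bp in cKO. Srsf3, a small SR protein, measured 2309 bp in fl and 2338 bp in cKO. In fl these peaks reached 1280 bp and 2011 bp into the gene from the nearest listed start. Hnrnpdl followed with 2210 and 2285 bp, Hnrnpa1 with 2162 bp in both genotypes, and Srsf2 with 2019 and 2126 bp. A peak at a gene end can also belong to a neighbour: 4 of these 5 peaks also lay within 1 kb of an end of another protein-coding gene, Cbx3 at Hnrnpa2b1, Enoph1 at Hnrnpdl, Cbx5 at Hnrnpa1 and Mfsd11 at Srsf2. Peaks were shared in this way at 27 of 62 members (43.5%) and at 29.8% of all genes with a peak, and at 11 of 16 Hnrnp genes. Shared peaks of members had a median width of 1370.0 bp and the others 924 bp, against 959 and 792 bp over all genes. The Hnrnp peaks that were not shared still had a median of 1230 bp and the Srsf ones 1423 bp.

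The narrowest fl peaks belonged to Sf3a1 (361 bp), Sf3a3 (503 bp) and Snrpe (539 bp). Snrpe, a gene of the Sm ring, showed that narrow was not weak: its peak had the highest fold enrichment of the group at the summit (15.7 in fl, 17.3 in cKO) and rank 1422 of 10514 in fl. Hnrnpl, a binder of CA-rich RNA, had the lowest fold enrichment (4.69 in fl) on a peak of 1230 bp. That peak lay upstream of its listed start, from −2020 to −791 bp. A separate fl peak of 814 bp, with a fold of 5.11, covered the start itself. Across the 62 members in fl, Spearman's rho between width and fold enrichment was −0.53, against −0.02 over all 9594 genes with a peak. In cKO the values were −0.40 and 0.04. Genes share a library and are not replicates, so these correlations are descriptions. Among the members, broader H3K4me3 peaks tended to have lower summits.

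**Figure D3:**
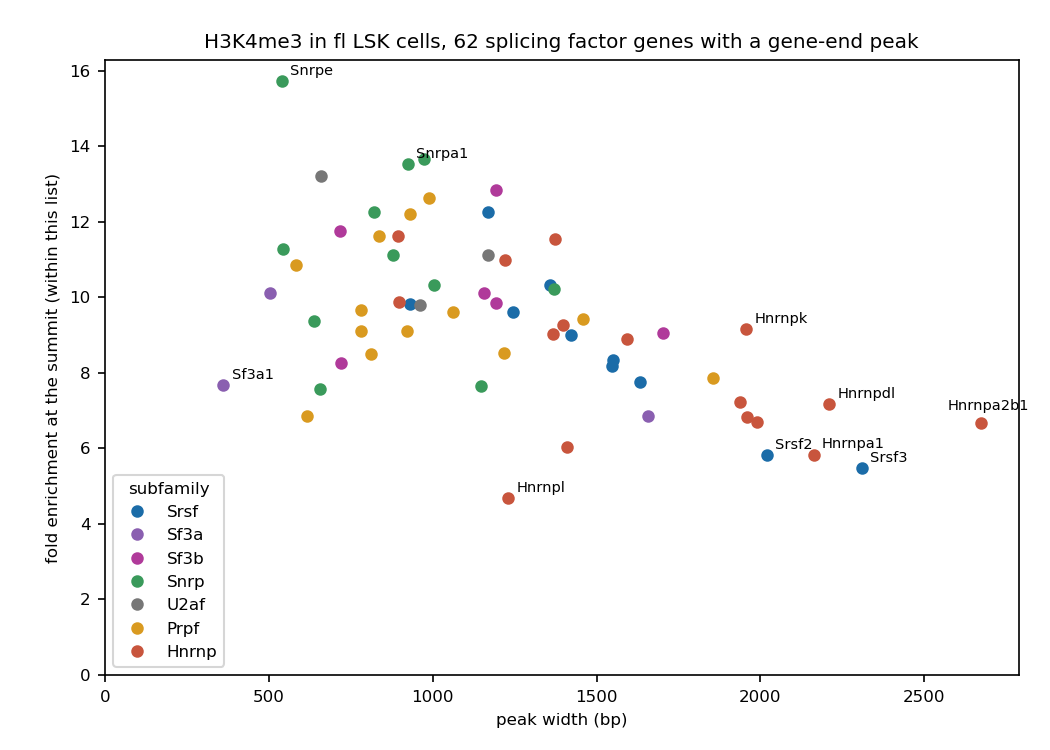
Each point is 1 of the 62 genes with an H3K4me3 gene-end peak in fl LSK cells, by peak width in bp (horizontal) and by the fold enrichment the caller gave at the summit within that list (vertical), coloured by subfamily. The tallest peak, of Snrpe at 15.7, is 539 bp wide, and the 5 peaks over 2000 bp all lie under a fold of 8.

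Ranks by −log10 q put the members toward the strong side of the H3K4me3 lists. The median member stood at 28.4% of the fl list, where 0 is the strongest peak, and the median of all genes with a peak at 42.9%. The subfamily medians in fl were 13.7% for Hnrnp, 17.4% for Srsf, 27.6% for U2af and 28.1% for Sf3b. They were 31.9% for Snrp, 47.5% for Prpf and 65.0% for Sf3a (n = 3). Prpf and Sf3a thus stood on the weaker side of the median of all genes. In cKO Hnrnp stood at 18.3% and Srsf at 17.8%. The strongest 10% of the list held 14 of the 62 members (22.6%) and 12.0% of all genes with a peak. Srsf10, a splicing repressor, ranked 121 of 10514 in fl and 200 of 10159 in cKO, and Hnrnpk, a KH-domain protein, ranked 135 and 231. Ranked by fold enrichment alone, the members' median moved to 49.5% in fl, beside 44.2% for all genes, so the members stood on the strong side by −log10 q and not by height.

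H3K4me3 is usually found on the nucleosomes just inside the transcribed side of a start. Over the 53 members with a listed start, the fl H3K4me3 summit stood a median of 173 bp downstream of the nearest listed start, against 172 bp over all genes. In Srsf genes the median was 451.5 bp (n = 10) and in Hnrnp genes 55 bp (n = 14). The summit of Srsf3 was 1025 bp and that of Srsf2 889 bp into the gene in fl, and 172 bp and 628 bp in cKO, so the summit of a broad peak was not a fixed point.

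The next comparison asked whether H3K4me3 at these genes differed without DEK. In the 61 genes with a peak in both genotypes, the 2 peaks overlapped in all 61. The peak was wider in fl at 39, wider in cKO at 20 and equal at 2, with a median difference (cKO minus fl) of −31 bp. Over all 8993 genes with both peaks the median difference was −39 bp, and 35.4% were wider in cKO, close to the 32.8% of members. The members' median and share thus lay near those of all genes. The largest differences were at Sf3b1 (1704 bp in fl, 1141 bp in cKO) and Prpf31 (1219 and 738 bp) toward fl, and at Prpf4 (931 and 1294 bp) toward cKO. At Hnrnpa1 and Hnrnpl both edges of the peak were the same base in the 2 lists, as at 1.56% of all genes. For Hnrnpl this was the peak upstream of its listed start.

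H3K27ac separated the members more than H3K4me3 did. A peak lay within 1 kb of a gene end at 35 of 69 genes in fl (50.7%, interval 38.4 to 63.0) and at 51 in cKO (73.9%, interval 61.9 to 83.7), against 21.9% and 42.5% of all genes. With the peak required to overlap the gene end itself, the counts were 18 in fl and 34 in cKO, and 18 genes had the mark in both genotypes. It was found in both genotypes at 34 members, in cKO only at 17, in fl only at 1 and in neither at 17. The shares of all genes were 21.5% for both, 20.9% for cKO only, 0.384% for fl only and 57.2% for neither. Counted at gene ends or any listed start, H3K27ac lay at 39 members in fl and 55 in cKO. By class that was 39 in both genotypes, 16 in cKO only and 0 in fl only. No share of all genes was taken for this count or for overlap with the gene end itself. Hnrnpf, Hnrnph1 and Hnrnpul1, counted above in neither, had peaks within 1 kb of an inner listed start in both genotypes. Among genes with H3K4me3 in both genotypes the members were near the rest: 54.1% of the 61 members had H3K27ac in both genotypes and 24.6% in cKO only, against 49.1% and 32.9% of 8993 genes. For fl only the shares were 1.64% and 0.545%, and for neither 19.7% and 17.5%. The cKO list is 16331 peaks long against 10494, from 1 library each, so the genotype and the length of the list cannot be told apart. With the cKO list limited to its 10494 strongest peaks, 13 members had H3K27ac in cKO only (11% of all genes), 3 in fl only (1.93% of all genes) and 32 in both (20% of all genes).

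**Figure D4:**
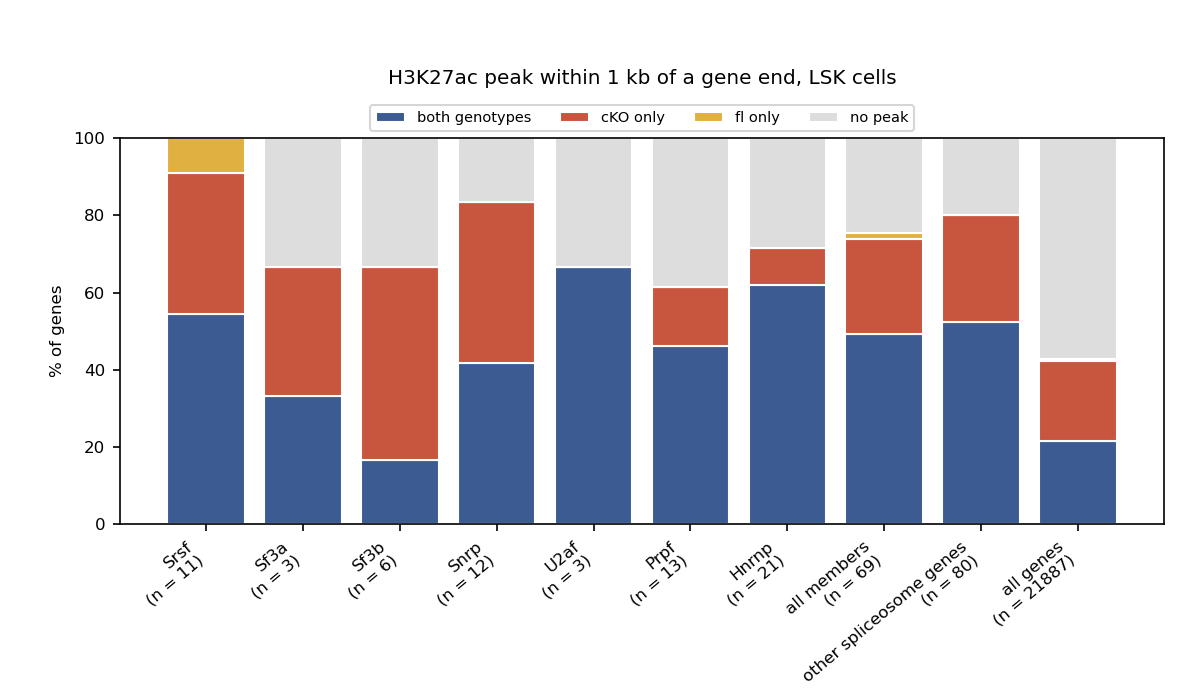
Stacked bars give the percentage of genes with an H3K27ac gene-end peak in both genotypes (blue), in cKO only (red), in fl only (yellow) or in neither (grey), by subfamily and beside 80 other spliceosome genes and all 21887 protein-coding genes. Hnrnp genes are mostly blue (13 of 21 in both, 2 in cKO only), and Snrp genes are split evenly (5 in both, 5 in cKO only). Hnrnpf, Hnrnph1 and Hnrnpul1 count as grey, since their peaks in both genotypes lie at a listed start inside the gene.

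The Hnrnp genes had their H3K27ac in both genotypes more than the particle genes did: 13 of 21 Hnrnp genes had it in both and 2 in cKO only, against 5 and 5 of 12 Snrp genes and 1 and 3 of 6 Sf3b genes. These counts are small and were not tested. They cover annotated ends only and leave out Hnrnpf, Hnrnph1 and Hnrnpul1, which had the mark at an inner listed start in both genotypes. In the Sm ring, which most of the main spliceosomal particles share, Snrpb, Snrpd3 and Snrpe had the mark in both genotypes. Snrpd1, Snrpf and Snrpg had it in cKO only and Snrpd2 in neither, although all 7 genes carried H3K4me3 in both. Snrpb stood near the threshold in fl (301 bp, −log10 q 4.62, rank 10203 of 10494) and at rank 8196 of 16331 in cKO (665 bp). Of the SR genes, 6 of 11 had the mark in both and Srsf4, Srsf6, Srsf11 and Srsf12 in cKO only. Of the Prpf genes, 5 of 13 had none, among them Prpf4 and Prpf31 of the U4/U6 particle and Prpf6 of the U5 particle.

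Among the 17 genes with H3K27ac in cKO only, the strongest peak was at Prpf40b (603 bp, −log10 q 35.7, rank 2453 of 16331), a relative of a yeast protein of the U1 particle. Sf3b2 came next (891 bp, rank 2707), but its peak lay at the far end of the gene, where the gene Pacs1 also has an end, and no H3K27ac peak lay at its start in either list. Srsf4 followed with 953 bp and rank 4130, Snrpf with 514 bp and rank 4755, and Sf3b4 with 414 bp and rank 5480. Snrpd1 (rank 5682), Prpf19, the ubiquitin ligase of the catalytic spliceosome (5738), Hnrnpa2b1 (5848), Snrpg (5981), Sf3a2 (6107), Hnrnpu (6780) and Srsf6 (8419) completed the 12 highest. They stood between 15.0% and 51.6% of the list, so none was in its strongest 10%. The cKO peak of Hnrnpu was the widest H3K27ac peak of the group at 1705 bp. For Hnrnpu a fl peak lay outside the gene, between 1 and 2 kb from its end, so at a window of 2 kb Hnrnpu was counted in both genotypes. That fl peak did not overlap the cKO peak, which covered the listed start. Srsf11 had fl and cKO H3K27ac peaks over its inner listed start (fl rank 3483, 429 bp), outside the window at its annotated end. Srsf12, which lacked H3K4me3 in both lists, had an H3K27ac peak of 414 bp in cKO at rank 10777, and it was absent from the 10494 strongest.

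Srsf1, the founding SR protein, was the 1 gene counted in fl only. Its fl peak was weak (307 bp, −log10 q 4.03, rank 10333 of 10494). A cKO peak of 1175 bp (chr11:88047501-88048675, rank 6643 of 16331) overlapped it and began 55 bp further into the gene, just past the 1 kb window, so both genotypes had H3K27ac at this promoter. At Hnrnpa1 no H3K27ac peak was called in either list, although its H3K4me3 peak was 2162 bp wide. Hnrnpa2b1 had it in cKO only, on the outer flank of its H3K4me3 peak, with the summit at −924 bp from its nearest listed start (upstream) and so on the side of Cbx3. Broad H3K4me3 at these hnRNP genes was thus present without a called H3K27ac peak over their own start.

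Among gene-end peaks in fl, the highest H3K27ac ranks of the group were those of Snrpa1, a U2 particle protein (2549 of 10494, 367 bp), Srsf10 (2572, 508 bp), the kinase Prpf4b (2853, 455 bp), Prpf3 of the U4/U6 particle (3071, 433 bp) and, tied, Hnrnpa0 (3582, 373 bp) and Srsf5 (3582, 737 bp). No gene-end peak of a member was in the strongest 10% of either H3K27ac list, where 0.25% and 2.93% of all genes with a peak stood. The median rank was 53.5% of the fl list and 33.6% of the cKO list, beside 63.8% and 44.0% for all genes. Ranked among gene-end peaks alone, the members' medians were 33.1% in fl and 32.2% in cKO, close to each other. Over the whole list the members' median thus stood near the middle in fl and on the stronger side in cKO. Among gene-end peaks it stood above the middle of the ranking in both, and no median of all genes was taken on that scale. The strongest peaks of both lists lie mostly away from gene ends.

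By their medians, H3K27ac peaks were narrower than H3K4me3 peaks in both genotypes and wider in cKO than in fl. The median H3K27ac width was 433 bp in fl (n = 35) and 641 bp in cKO (n = 51), against 385 and 547 bp over all genes. In the 34 genes with both, the peak was wider in cKO at 32, wider in fl at 1 (Srsf3) and equal at 1 (Srsf5). The share wider in cKO, 94.1%, was the same over all 4711 such genes. The median difference (cKO minus fl) was 236 bp for members and 167 bp for all. Hnrnp genes reached the largest widths: in cKO their median was 1003 bp (n = 15) and 8 of 15 were at least 1000 bp, against 5.15% of all genes with a peak. Of the fl H3K4me3 peaks of Hnrnp genes, 11 of 16 were shared with another gene's end. Sharing was not counted for H3K27ac, so these widths may take in a neighbour's promoter. Hnrnpk went from 315 bp in fl (rank 9423 of 10494) to 1646 bp in cKO (rank 5866 of 16331), the largest difference of the group, with the cKO summit at −808 bp from the start, on the upstream side. Srsf2 measured 871 and 1577 bp, Hnrnpdl 613 and 1701 bp, and Srsf3 756 and 520 bp. Every member with both marks had them overlapping (35 of 35 in fl, 48 of 48 in cKO), as did 96.7% and 96.4% of all such genes. The width of the H3K27ac peak as a percentage of that of the H3K4me3 peak had a median of 34.2% in fl and 65.1% in cKO, against 46.6% and 74.0% over all such genes. It was above 100% at single genes, such as Sf3a1 in fl (411 and 361 bp) and Prpf3 in cKO (517 and 356 bp).

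**Figure D5:**
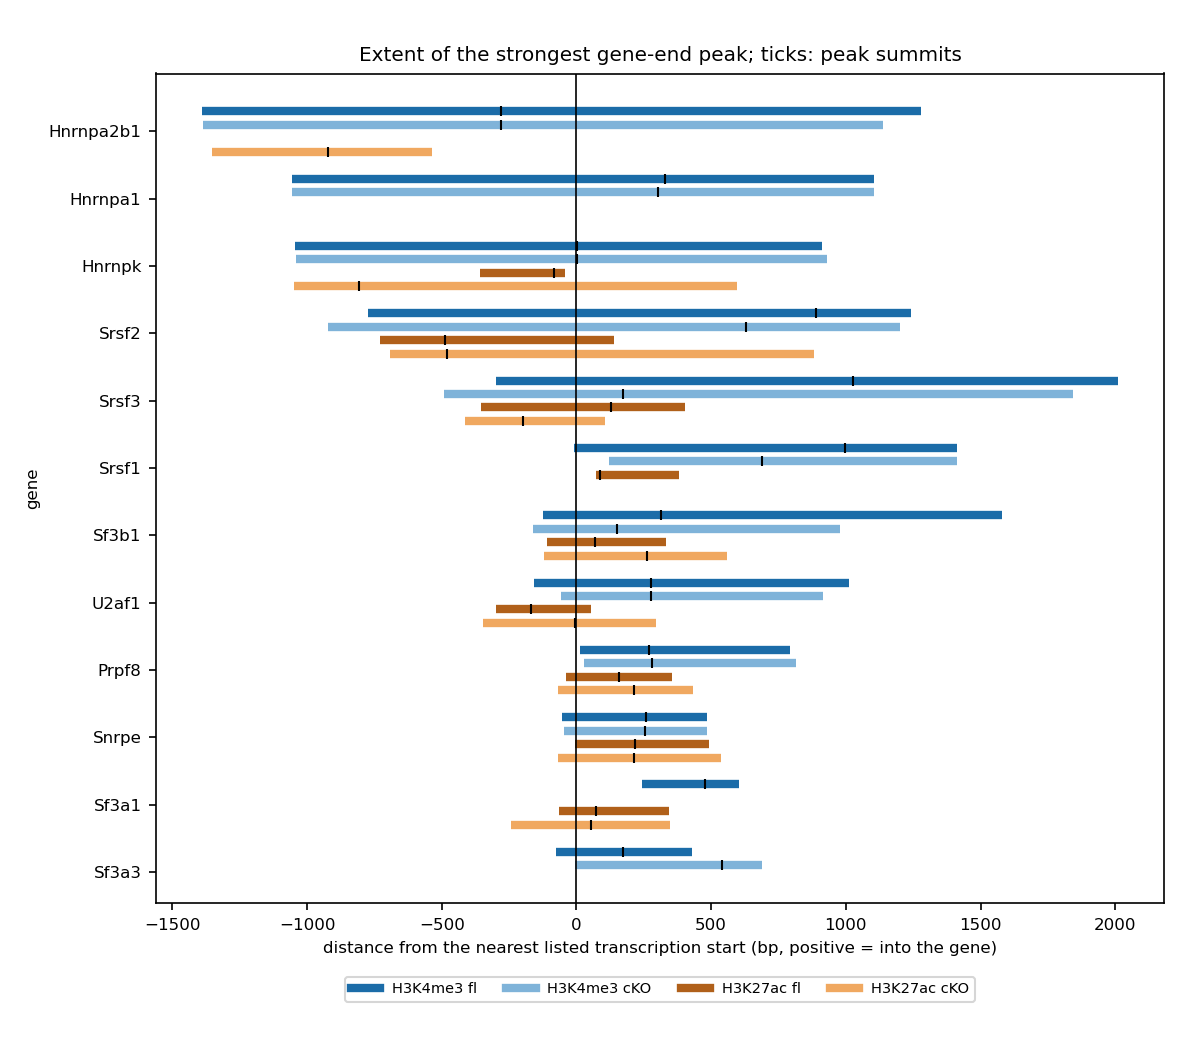
Horizontal bars give the extent of the strongest gene-end peak of 12 genes in the 4 LSK lists, in bp from the nearest listed start (positive into the gene), with ticks at the summits. Hnrnpa1 has no H3K27ac bar, the H3K27ac bar of Hnrnpa2b1 in cKO lies upstream of the start, and the cKO bar of Hnrnpk is 1646 bp long against 315 bp in fl.

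The genes known for mutations in myeloid disease, with Prpf8, were marked in both genotypes. Srsf2 had H3K4me3 ranks of 2054 of 10514 in fl and 716 of 10159 in cKO, and H3K27ac ranks of 4371 of 10494 and 7689 of 16331. Its H3K27ac summits lay at −488 and −482 bp from the start, upstream and toward Mfsd11, while the H3K4me3 summits lay inside the gene. Sf3b1, the largest subunit at the branch point, had H3K4me3 ranks of 2641 and 2268 and H3K27ac ranks of 4054 (443 bp) and 4897 (681 bp). U2af1, the reader of the AG at the end of the intron, had H3K4me3 peaks of 1169 and 973 bp (ranks 3258 and 4065). Its H3K27ac peak had rank 6410 of 10494 in fl (350 bp) and rank 2131 of 16331 in cKO (646 bp). Prpf8, the centre of the catalytic spliceosome, had narrower H3K4me3 (781 and 788 bp) and H3K27ac at ranks 7685 (394 bp) and 5357 (503 bp). Weaker peaks of both marks lay at the far end of Prpf8 as well.

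U2af2, the partner of U2af1, showed the limit of the window. Its strongest peaks lay at the end with the higher coordinate, where Epn1 also has an end: H3K4me3 at ranks 2905 and 3180, and H3K27ac at rank 10477 of 10494 in fl and 2861 of 16331 in cKO. At the end with the lower coordinate it had H3K4me3 peaks of 1171 bp (rank 5381) and 1204 bp (rank 3228) and no H3K27ac peak. The promoter table held no entry for U2af2, so its start was not settled here. Over the members with a listed start, the strongest H3K4me3 peak was at the start side in 52 genes and at the far end in 1, Sf3b2, in fl.

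H3K9ac in HSC was close to absent from these genes. In fl 1 of 69 had a peak at an end (1.45%, against 0.658% of all genes) and in cKO another 1 (1.06% of all genes). By class these are 0 in both genotypes (0.0503% of all genes), 1 in fl only (0.608%), 1 in cKO only (1.01%) and 67 in neither (98.3%). The fl gene was Sf3b2, with a peak of 201 bp (chr19:5295196-5295396) and −log10 q 1.64 at rank 1215 of 2172. The cKO gene was Sf3b4, with 188 bp (chr3:96172169-96172356) and −log10 q 2.79 at rank 1539 of 3431. Both lay within their gene's H3K4me3 peak of LSK cells. Neither was left at a −log10 q of at least 5. Within the gene or 1 kb of it, the fl count stayed at 1 (4.91% of all genes) and the cKO count was 2 (7.26%), with Sf3b6, a branch-point protein, as the second. These lists marked few genes of any kind (144 and 232), and the members' shares were low along with those of all genes.

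DEK was not found at the ends of splicing factor genes. The count was 0 of 69 in each of the 3 libraries, which allows a share of up to 5.21% (95% exact interval, counting error only). Over all genes 0.288%, 0.306% and 0.69% had a peak in the 3 libraries, 1.21% in any and 0.064% in at least 2. With shares this low, a count of 0 among 69 genes cannot tell the members from the background. Within the genes, 4 members had a DEK peak, each in 1 library (12.9% of all genes in any library). That was 0 in replicate 1 (3.56% of all genes), 1 in replicate 2 (3.71%) and 3 in replicate 3 (9.02%). The peak at Hnrnpl in replicate 2 (chr7:28810246-28810874, 629 bp, −log10 q 3.31, rank 1108 of 2111) lay 16 bp from a listed start inside the gene. It met an H3K4me3 peak of both genotypes and a cKO H3K27ac peak there. In replicate 3, Sf3b6, Srsf4 and Snrpn had peaks of 231, 176 and 184 bp at ranks 2312, 2053 and 4961 of 6147. The Sf3b6 peak lay 7895 bp from the listed start and met the cKO H3K9ac peak of that gene, and the other 2 met none of the histone peaks at their places. Replicates 1 and 2 had no peak at the place of any of these 3, and replicates 1 and 3 none at that of Hnrnpl.

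Snrpn, the imprinted gene of the SmN protein known from neurons, differed from the other Snrp genes. It had no gene-end peak in any of the 9 lists and no H3K4me3 peak inside the gene. 4 H3K27ac peaks lay inside its long annotated span in fl, each overlapped by 1 of 4 cKO peaks. Their fl ranks were 356, 787, 2223 and 10050 of 10494, and their cKO ranks 460, 8392, 4849 and 12154 of 16331. The strongest (908 bp in fl, 1118 bp in cKO) lay 22478 bp from the nearest listed start in fl, and the other 3 lay farther from one. In fl, 3 of the 4 ranked above every gene-end H3K27ac peak of the 69 genes.

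A list of 80 other spliceosome genes that the symbols above leave out (helicases, LSm proteins, kinases of SR proteins, exon junction factors) gave a similar picture of presence and a different one of width. H3K4me3 lay at 79 of 80 in fl and 77 in cKO, beside 43.8% and 42.7% of all genes. H3K27ac lay at 42 in fl and 64 in cKO, beside 21.9% and 42.5% of all genes. In cKO only it lay at 22, beside 20.9% of all genes. The median H3K4me3 width in fl was 909 bp, near the Prpf and Snrp medians, and 3 of 79 peaks were at least 1500 bp (3.80%), against the 25.8% of members. Of the 16 broad peaks of members, 13 stood at Hnrnp and Srsf genes. A DEK peak lay at an end of 1 of the 80, beside 1.21% of all genes in any library.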

How the data were processed

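CUT&Tag libraries were profiled for DEK (HSC, 3 fl), H3K9ac (HSC, 1 fl and 1 cKO), and H3K27ac and H3K4me3 (LSK, 1 fl and 1 cKO each). Bowtie2, Picard and MACS2 with mm10 were used, per the submitters' processing notes; the sources used here do not give versions, controls or thresholds. The authors deposited 1 peak list per library. Outside the rows left out, the authors' score equals the −log10 p multiplied by 10 and cut to a whole number. Fold enrichment is the authors' ratio at the summit, within 1 library. The authors' −log10 q (from the q-value) ranked the peaks of each list and their −log10 p (from the p-value) served for the check of the score; heights were not compared between lists. The lowest −log10 p of each list lay between 5.003 and 5.085. The row names in DEK replicate 3 have a Flag stem, unlike the other DEK lists; the label was followed. In that list and both H3K9ac lists the stem also contains rmdup, which the other lists lack; whether duplicate removal differed between lists, and its part in list lengths, was not tested.

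From the DEK lists 16 mitochondrial peaks and 11 rows with no strand mark, a score at odds with the p-value or a place out of order were left out. A gene carried a peak when at least 1 bp lay within 1 kb of either annotated end, since the gene table has no strand; the peak of highest −log10 q stood for the gene. Gene positions, starts and sequences came from RefSeq (GRCm38.p6); 9 members had no listed start. Shares carry 95% exact binomial (Clopper-Pearson) intervals for counting error only. The overlap step was tested on simulated peaks. No test between genotypes was possible, and replicates were not combined. Read depth is unknown.

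The members, lists and tests were chosen with earlier results of these data known. Named genes were 12 fixed members, those with DEK or H3K9ac at an end, those without H3K4me3 in a genotype, those with H3K27ac in fl only, the 12 strongest in cKO only, the 5 widest and 3 narrowest H3K4me3 peaks and the 5 highest fl H3K27ac ranks. Other members were named after their values were seen. Alternatives changed the window, the −log10 q threshold, the overlap, the gene side, the list length, the ranking and the peak kept per gene; a window at gene ends or any listed start was added after the data were seen. Software was Python 3.11.15 with scipy 1.17.1, pandas 2.3.3, matplotlib 3.10.9 and numpy 2.4.6.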

Additional observations from a re-analysis of the deposited data

How the results depend on the processing

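Across the alternatives tried, 111 values stayed close to the reported one (counts within 1.5 times) and 28 did not. With the peak required to overlap the gene end itself, H3K27ac lay at 18 members in fl and 18 in both genotypes, at 0 in fl only, H3K4me3 in cKO only at 4, and each H3K9ac count was 0. With a window of 2 kb, H3K27ac in fl only was 0, H3K9ac in cKO and in cKO only 2, and DEK in any library 2. At a −log10 q of at least 5, H3K27ac in fl only and every H3K9ac count were 0. With at least 50% of the peak inside the window, H3K27ac in fl only was 0. At listed starts only, it was 0, H3K9ac in cKO and in cKO only 0, and DEK in any library 1. At gene ends or any listed start, H3K27ac in fl only was 0 and DEK in any library 1. With lists of equal length, H3K27ac in fl only was 3 (1.93% of all genes). The other alternative counts have no share of all genes beside them. Ranked among gene-end peaks alone, the fl H3K27ac median was 33.1%; ranked by fold, the H3K4me3 medians were 49.5% in fl and 45.6% in cKO. Leaving out each DEK replicate in turn gave 0 to 0 members. No paired analysis was possible because the fl and cKO groups have 1 library each and share no replicate numbers in the labels. Keeping the 11 irregular rows left the DEK count at 0. The depth of the libraries is unknown, so a missing peak is not an absent mark. The window takes in gene ends that are not starts (Sf3b2, U2af2) and misses starts inside genes (Hnrnpf, Hnrnph1, Hnrnpu, Hnrnpul1), and a shared peak cannot be given to 1 gene.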
